A study of Drosophila melanogaster with 2 samples.

Results

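Genes for translation factors and aminoacyl-tRNA synthetases were examined for binding of Rotund, a zinc finger transcription factor, in fruit fly pupae. They were chosen by symbol: protein-coding genes whose names begin with eIF, eEF or eRF and a digit, and genes named with a 3-letter amino acid code followed by RS, with or without the suffix -m for a mitochondrial enzyme. This gave 85 of the 13945 protein-coding genes on the main chromosome arms. By role there were 44 initiation factor genes, 9 elongation and release factor genes, 17 cytosolic synthetase genes and 15 mitochondrial synthetase genes.

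The data were ChIP-seq (sequencing of DNA recovered by chromatin immunoprecipitation) from whole Drosophila melanogaster pupae of strain rn-GFP. The animals carried a transgene for Rotund (rn) fused to enhanced GFP, and chromatin sheared by sonication was precipitated with an antibody against GFP. There were 2 biological replicates of this 1 group, with the pupal stage unknown and the sex not collected, and no control library was analysed here. The labels do not say whether the replicates were separate pools of animals, so the spread between them may be technical.

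Initiation factors bring the small ribosomal subunit, the initiator tRNA and the mRNA together and select the start codon. Elongation factors deliver charged tRNAs and move the ribosome along the message, and release factors end synthesis at the stop codon. Synthetases join each amino acid to its tRNA, with separate enzymes for many amino acids in the cytosol and in mitochondria. Rotund is known for its part in patterning the leg and the wing and in the diversity of olfactory neurons.

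The stretches of DNA under the peak summits (the position of highest signal) of 9 of these genes are shown first, because the results rest on where these summits lie. Each is 101 bp of the Release 6 (dm6) genome sequence from RefSeq, centred on the summit and written 5′ to 3′ on the strand of the gene named. Capitals mark a match to 1 of 6 motifs searched on both strands: a run of 7 A, the DNA replication-related element (DRE) core TATCGAT, the motif 1 core GTCACAC, the E-box CAGCTG, the TATA box TATAAA and the homeodomain core TAATTA. The windows are at X:2703843-2703943 (plus strand) for eIF2Bbeta, X:16448969-16449069 (plus) for eIF4H1, 3R:29220068-29220168 (plus) for eEF1gamma, 3L:20348227-20348327 (plus) for eRF1, 3L:22288453-22288553 (plus) for IleRS, 2L:12103507-12103607 (plus) for ThrRS, X:15844264-15844364 (minus) for ArgRS, 3L:4824939-4825039 (plus) for LeuRS-m and 3L:2651947-2652047 (minus) for ProRS-m.
eIF2Bbeta: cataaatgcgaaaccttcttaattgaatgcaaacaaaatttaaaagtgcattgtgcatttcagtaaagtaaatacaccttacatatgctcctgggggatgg
eIF4H1: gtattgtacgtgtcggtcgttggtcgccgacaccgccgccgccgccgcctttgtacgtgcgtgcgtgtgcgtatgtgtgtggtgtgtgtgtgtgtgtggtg
eEF1gamma: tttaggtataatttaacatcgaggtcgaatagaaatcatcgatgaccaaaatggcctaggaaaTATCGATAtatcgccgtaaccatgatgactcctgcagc
eRF1: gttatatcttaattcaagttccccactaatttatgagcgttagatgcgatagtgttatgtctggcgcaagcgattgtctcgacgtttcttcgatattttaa
IleRS: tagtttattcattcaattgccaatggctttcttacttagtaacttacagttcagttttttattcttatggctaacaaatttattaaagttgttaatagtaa
ThrRS: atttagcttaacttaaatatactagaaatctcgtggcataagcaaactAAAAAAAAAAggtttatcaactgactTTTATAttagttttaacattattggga
ArgRS: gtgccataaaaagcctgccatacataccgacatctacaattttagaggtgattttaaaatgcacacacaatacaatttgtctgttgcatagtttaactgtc
LeuRS-m: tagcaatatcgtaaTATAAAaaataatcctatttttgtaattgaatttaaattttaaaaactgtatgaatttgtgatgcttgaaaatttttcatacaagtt
ProRS-m: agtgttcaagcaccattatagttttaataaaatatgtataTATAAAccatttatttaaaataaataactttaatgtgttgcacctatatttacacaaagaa
Of these 9 windows, eEF1gamma held the DRE core, ThrRS an A run and a TATA box on the other strand, and LeuRS-m and ProRS-m a TATA box. In eEF1gamma the capitals run over 8 letters because TATCGAT and its reverse complement overlap there. The other 5 windows held none of the 6 motifs. Base composition varied widely among them, and the ProRS-m window had 20.8% G and C, against 62.4% in the eIF4H1 window.

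A peak was given to a gene when its summit lay within 500 bp of one of the gene's transcript starts, in the gene's body or up to 1 kb upstream. The thresholded set over both replicates, in which every peak had an irreproducible discovery rate (IDR, which estimates how likely a call is not to be repeated when calls are paired) of about 0.01 or lower, gave a peak to 18 of the 85 genes. That is 21.2%, beside 18.3% (2557) of all 13945 protein-coding genes, so the share was near the background. Within 500 bp of an own start, 14 genes (16.5%) had a summit, beside 12.1% of all genes. A gene bound in more cells of the whole animal and a gene bound more strongly in each cell cannot be told apart in these data. Since the deposited lists give peaks without reads, read depth is unknown, and with 1 group no test between conditions was possible.

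The share differed in size between the roles, though each count was small. A peak was given to 9 of 44 initiation factor genes (20.5%), 3 of 9 elongation and release factor genes (33.3%), 4 of 17 cytosolic synthetase genes (23.5%) and 2 of 15 mitochondrial synthetase genes (13.3%). Within initiation, genes were grouped by the digit in the symbol. The counts were 1 of 10 for symbols beginning with eIF2, which takes in eIF2A and eIF2D beside the eIF2 and eIF2B subunits. They were 2 of 16 for eIF3, 3 of 13 for eIF4 and 3 of 5 for the other factors, those with a peak being eIF1, eIF5B and eIF6. The initiation count was 4 (9.09%) in the own set of replicate 2 and 5 (11.4%) at an IDR of 0.001, and the mitochondrial synthetase count was 1 (6.67%) in each, beside 12.4% and 12.3% of all protein-coding genes. Taken by kind of protein, 12 of 53 factor genes (22.6%) and 6 of 32 synthetase genes (18.8%) had a peak. These differences were not tested.

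The proteins that form the ribosome itself gave a point of comparison. Among genes for cytosolic ribosomal proteins 33 of 92 (35.9%) had a peak, and among genes for mitochondrial ribosomal proteins 13 of 73 (17.8%). The count within 500 bp of a start was 14 of 85 for the factors and synthetases, 32 of 92 for cytosolic and 11 of 73 for mitochondrial ribosomal proteins. The width of the gap to the cytosolic ribosomal protein genes depended on the peak set. In the own set of replicate 1, 16.5% of the factor and synthetase genes had a peak and 18.5% (17) of the cytosolic ribosomal protein genes. The shares were 14.1% and 21.7% (20) in that of replicate 2, and 14.1% and 18.5% (17) at an IDR of 0.001. The gap stayed wide in the conservative set over both replicates, at 20% and 30.4% (28). It was also wide within 500 bp of a start, at 16.5% and 34.8%. Giving each peak only to the gene with the nearest start left 11.8% and 30.4% (28). These differences were not tested.

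**Figure D1:**
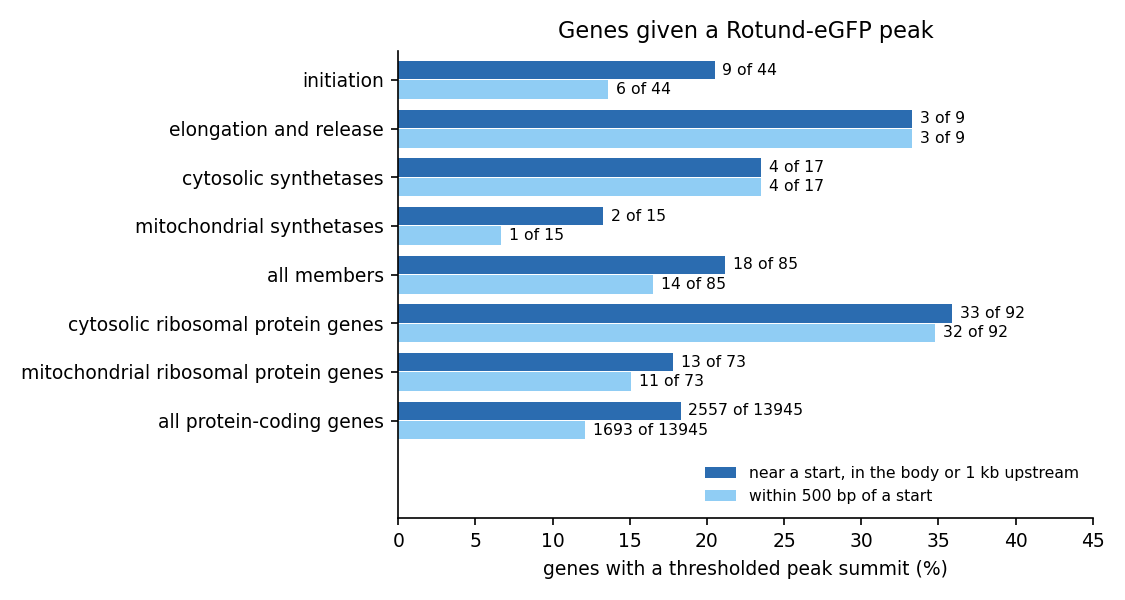
Percentage of genes given a thresholded peak (x axis) in each role group, in all 85 genes, in the ribosomal protein genes and in all protein-coding genes (y axis). Dark bars count summits near a start, in the body or 1 kb upstream, and light bars only those within 500 bp of a start. The 85 genes reach 21.2% and 16.5%, beside 18.3% and 12.1% of all protein-coding genes.

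The 18 genes had 20 distinct peaks, since eIF5B had 3. Signal is the authors' signal value for the peak, which is not scaled between lists, and peaks are ranked here within a list from the strongest. The strongest peak of each of the 18 genes had a median signal of 93.0, with quartiles of 70.0 and 133, beside a median of 79.7 and quartiles of 60.1 and 119 over all 3774 peaks on the arms. These are unlike measures, since 1 strongest peak per gene is set against every peak. Over promoter peaks alone the median was 96.0, with quartiles of 67.3 and 125, for the 15 at these genes. It was 85.0, with quartiles of 62.6 and 141.5, for all 1453, so the upper quartile was lower at these genes. Of the 18 genes, 5 lay above the upper quartile of all peaks, 6 below its median and 1 below its lower quartile. Most of these peaks were of middling signal, and a pair of initiation factor genes, eIF2Bbeta and eIF6, stood far above the rest.

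Among initiation factor genes the strongest signal was at eIF2Bbeta, which encodes a subunit of the exchange factor that recharges eIF2 with GTP. Its peak at X:2703751-2704016 had a signal of 1133 over both replicates, the strongest of the whole set, with 586 in the ranked list of replicate 1 and 557 in that of replicate 2. Its −log10 IDR was 5, the highest value in the list. The summit lay 678 bp upstream of the eIF2Bbeta start and within 500 bp of the start of the neighbouring gene Ugalt, a UDP-galactose transporter gene. Within 500 bp of eIF2Bbeta's own start the strongest ranked peak had a signal of 17.1, so the strong peak lay at the neighbour's start and not at the gene's own.

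The gene for eIF6, which binds the large ribosomal subunit and keeps it from joining the small one too early, was second. Its peak at 2R:23850302-23850524 ranked 28 in the set with a signal of 594, and it had 301 in replicate 1 and 305 in replicate 2, with a −log10 IDR of 5. Its rank was 31 in the list of replicate 1 and 24 in that of replicate 2. The summit lay 124 bp upstream of the eIF6 start, within 500 bp of the start of the antisense RNA gene asRNA:CR45928 and inside the body of ytr.

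The gene for eIF5B, a GTPase that helps the ribosomal subunits join, had 3 peaks. The one near a start, at 3L:3460611-3460906, had a signal of 108 (rank 1119), with 64.9 in replicate 1, 42.1 in replicate 2 and a −log10 IDR of 3.97. Its summit lay 156 bp upstream of the nearest eIF5B start and within an untranslated exon of a longer transcript. The other peaks lay in introns at 3L:3432730-3433025, with a signal of 68.8 (46.0 in replicate 1 and 23.0 in replicate 2), and at 3L:3444273-3444568, with 65.5 (28.3 and 38.7). At 32320 bp the gene is long, and long genes collected more peaks in general, as given below.

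For eIF3h, a subunit of the eIF3 scaffold on the small ribosomal subunit, the peak at 2L:5052287-5052582 had a signal of 89.9 (rank 1551), with 63.3 in replicate 1, 31.2 in replicate 2 and a −log10 IDR of 3.66. Its summit lay 345 bp downstream of the nearest own start, in an intron, and also near the start of senju. A further eIF3 subunit gene, eIF3c, had its summit 1 bp from its start, with a signal of 60.8 over both replicates, 16.6 in replicate 1 and 46.7 in replicate 2. The remaining 14 of the 16 eIF3 genes had no thresholded peak.

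The eIF4 group joins the cap of the mRNA to the ribosome. Its genes with a peak were eIF4G2, a paralog of the scaffold eIF4G required in male meiosis, eIF4EHP, a cap-binding protein that represses translation, and eIF4H1, whose mammalian counterpart stimulates the helicase eIF4A. For eIF4G2 the signal was 83.6 (50.3 in replicate 1 and 34.9 in replicate 2) at a summit 1014 bp into the gene from the nearest start, in an intron and also inside the bodies of CG33111 and CG34355. For eIF4EHP the thresholded peak lay 9779 bp inside the gene, in an intron, with a signal of 71.6 (26.9 in replicate 1 and 38.2 in replicate 2), and it was called in neither replicate's own set. For eIF4H1 the signal was 38.7 (31.0 in replicate 1 and 15.9 in replicate 2), the lowest of the 18 genes. Its summit was 133 bp upstream of the nearest start and in an intron of a longer transcript, in the GC-rich window printed above.

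The gene for eIF1, which helps the ribosome settle on the right start codon, had a signal of 65.1, with 43.3 in replicate 1 and 29.0 in replicate 2. In replicate 2 the strongest overlapping peak with a summit within 100 bp had 21.4. The summit in the thresholded set was 348 bp upstream of the eIF1 start, the farthest of the 14 summits near an own start. This summit also lay within 500 bp of the start of the ribosomal protein gene RpL28 and of snoRNA:Or-CD11a.

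Among elongation and release factor genes, 3 had a peak, all within 500 bp of an own start and all of moderate signal. The gene for eEF1gamma, a subunit of the complex that reloads eEF1A with GTP, had a signal of 102 (rank 1237) at 3R:29219970-29220265 and a −log10 IDR of 3.73. Its signal was 23.7 in replicate 1 and 70.6 in replicate 2. The summit lay 54 bp upstream of the start, and the DRE core shown above lay within 50 bp of it.

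The gene for eRF1, the factor that reads stop codons, had a signal of 96.0 (rank 1389) at 3L:20348129-20348424, 45.6 in replicate 1, 49.7 in replicate 2 and a −log10 IDR of 3.43. It lay 78 bp upstream of the start, in a promoter shared with Rbbp5. The gene eEF1alpha1, for the main carrier of charged tRNAs to the ribosome, had a signal of 64.1 (rank 2608) at 2R:11891826-11892121, 31.4 in replicate 1, 36.9 in replicate 2 and a −log10 IDR of 2.75. Its summit lay 148 bp upstream of the nearest start and in an intron of a longer transcript. The partner of eRF1, the GTPase eRF3, had no peak in the thresholded set. The conservative set and the own set of replicate 1 held a peak at 2L:12434123-12434418, with signals of 65.03 and 46.5. In the ranked list over both replicates behind the thresholded set, this peak had a −log10 IDR of only 0.810. The ranked list of replicate 2 had no peak within 500 bp of an eRF3 start.

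Among cytosolic synthetase genes the strongest was IleRS, with a signal of 150 (rank 633) at 3L:22288355-22288650 and a −log10 IDR of 4.77. The ranked list of replicate 2 gave 68.6, while the list of replicate 1 had no peak there, its nearest summit being 5803 bp away. This value therefore rests on the lists over both replicates, the conservative set among them, and on replicate 2. The summit lay 162 bp upstream of the IleRS start, in a promoter shared with Hem.

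For SerRS the peak at 2L:3037286-3037581 had a signal of 142 (rank 698), with 55.4 in replicate 1, 84.5 in replicate 2 and a −log10 IDR of 4.61. Its summit was 31 bp upstream of the start and also near the start of CG17260. For ThrRS the peak at 2L:12103409-12103704 had a signal of 98.5 (rank 1325), with 57.1 in replicate 1, 40.7 in replicate 2 and a −log10 IDR of 3.69, 194 bp upstream of its start and near the start of Patsas. For ArgRS the peak at X:15844166-15844461 had a signal of 85.2 (rank 1699), with 41.7 in replicate 1, 42.5 in replicate 2 and a −log10 IDR of 3.40, 169 bp upstream of its start and near the start of CG8578. All 4 cytosolic synthetase genes with a peak thus had the summit upstream of the start and close to the start of a neighbour.

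Among mitochondrial synthetase genes LeuRS-m had the strongest signal, 208 (rank 311), at 3L:4824841-4825136, with 114.7 in replicate 1, 89.2 in replicate 2 and a −log10 IDR of 5. The summit lay 864 bp upstream of the LeuRS-m start, inside an intron of Dhc64C, a dynein heavy chain gene, in the AT-rich window printed above. Within 500 bp of the LeuRS-m start the strongest ranked peak had a signal of 22.8. For ProRS-m the peak at 3L:2651849-2652144 had a signal of 69.5 (rank 2294), with 41.5 in replicate 1, 26.5 in replicate 2 and a −log10 IDR of 2.97. It lay 147 bp upstream of its start, near the starts of CG42304 and Snup. The other 13 of the 15 mitochondrial synthetase genes had no thresholded peak.

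**Figure D2:**
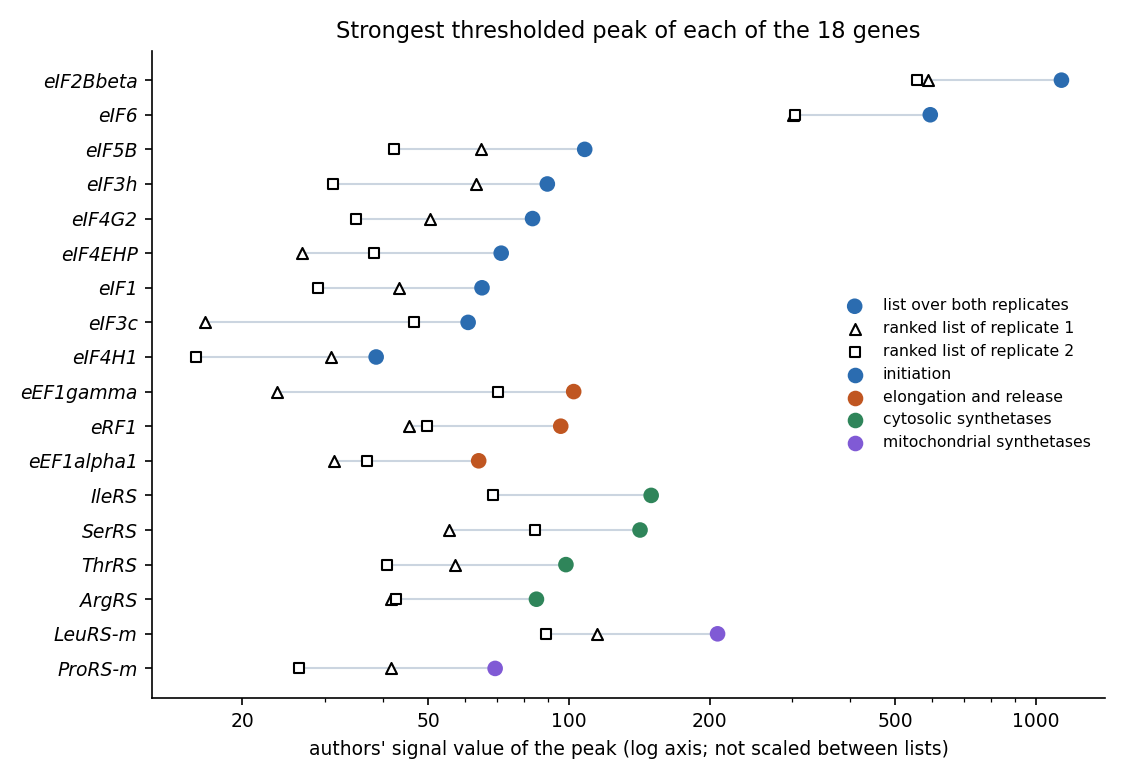
Signal of the strongest thresholded peak of each of the 18 genes (y axis, grouped by role) on a log axis (x axis). Filled points give the list over both replicates, triangles the ranked list of replicate 1 and squares that of replicate 2. The genes eIF2Bbeta (1133) and eIF6 (594) stand apart, and IleRS has no triangle because replicate 1 had no ranked peak there.

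The replicates did not call all the same genes, among these 85 or among all protein-coding genes. The own thresholded sets of the replicates gave a peak to 14 genes (16.5%) in replicate 1 and to 12 (14.1%) in replicate 2, beside 13.1% and 12.4% of all protein-coding genes. In both sets 8 of the 85 genes (9.41%) had a peak, beside 9.92% of all genes. Of the 18 strongest peaks, 8 overlapped a peak in both own sets, with signals of 85.2 to 1133, 9 did so in 1 set, with signals of 38.7 to 150, and the eIF4EHP peak did so in none. The peaks called in both own sets thus had the higher signals, with some overlap. This split was not counted over all thresholded peaks, so it is not shown to be particular to these genes.

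Ranks within the replicates' own ranked lists, of 68539 peaks in replicate 1 and 62374 in replicate 2, were far apart at a few genes. They were 6870 and 679 at eEF1gamma, 20050 and 1383 at eIF3c and 3511 and 16874 at eIF4H1 for replicates 1 and 2 in that order. Over the 41 of the 85 genes with a ranked peak within 500 bp of a start in each replicate, Spearman's rho between replicates was 0.614 and Pearson's r on log2 signal 0.813. Over 5645 protein-coding genes rho was 0.681. These correlations run across genes that share the same pair of libraries, so they describe the libraries only.

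Counting by other rules gave other numbers of genes, and the background moved with them. The conservative set gave a peak to 17 genes (20%), beside 17.8% of all, and an IDR of 0.001 to 12 (14.1%), beside 12.3%. Each replicate's ranked list at an IDR of 0.05 gave 16 genes in replicate 1 (18.8%, beside 16.8%) and 15 in replicate 2 (17.6%, beside 16.0%). Without the upstream window 16 genes had a peak (18.8%, beside 17.3%), with 5 kb upstream 26 did (30.6%, beside 27.1%), and with any overlap of the peak in place of its summit 19 did (22.4%, beside 18.9%). Summits within 250 bp of a start were found for 12 genes (14.1%, beside 9.25%) and within 1000 bp for 16 (18.8%, beside 14.7%). In all of these counts the genes' share was above the background by a few percentage points at most.

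Giving each peak only to the gene with the nearest start turned that order round. By that rule 10 genes (11.8%) kept a peak, beside 15.3% of all protein-coding genes. The genes that kept one were eIF3c, eIF3h, eIF4G2, eIF4H1, eIF5B, eEF1alpha1, eEF1gamma, eRF1, IleRS and ThrRS. The strongest peaks, at eIF2Bbeta, eIF6 and LeuRS-m, all went to other genes. No mitochondrial synthetase gene kept a peak by the nearest start.

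The summits of these genes lay mainly at promoters and mainly upstream of the nearest own start. Of the 20 peaks, 15 (75%) lay within 500 bp of the start of some gene and 5 (25%) in introns, beside 38.5% and 42.8% of all 3774 peaks. A summit near a start counts here as a promoter summit wherever else it lies, so the eIF5B and eIF3c summits, in untranslated exons, are among the 15. None of the 5 summits outside promoters lay in an exon or between genes. Promoter summits were not sorted further by the exons of other genes, and some, as at IleRS and ThrRS, lay between genes. Of the 14 summits within 500 bp of an own start, 12 were upstream of the nearest one. Among these, the summits of eIF5B, eEF1alpha1 and eIF4H1 lay inside the gene, within a longer transcript. Over the 14 summits the distance ran between 1 and 348 bp with a median of 147.5 bp. Side and distance were not counted over all protein-coding genes, so neither is shown to be particular to these genes. The rule for giving a peak to a gene favours promoters and leaves out peaks between genes beyond its windows. These shares are therefore not set against the whole by a test.

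**Figure D3:**
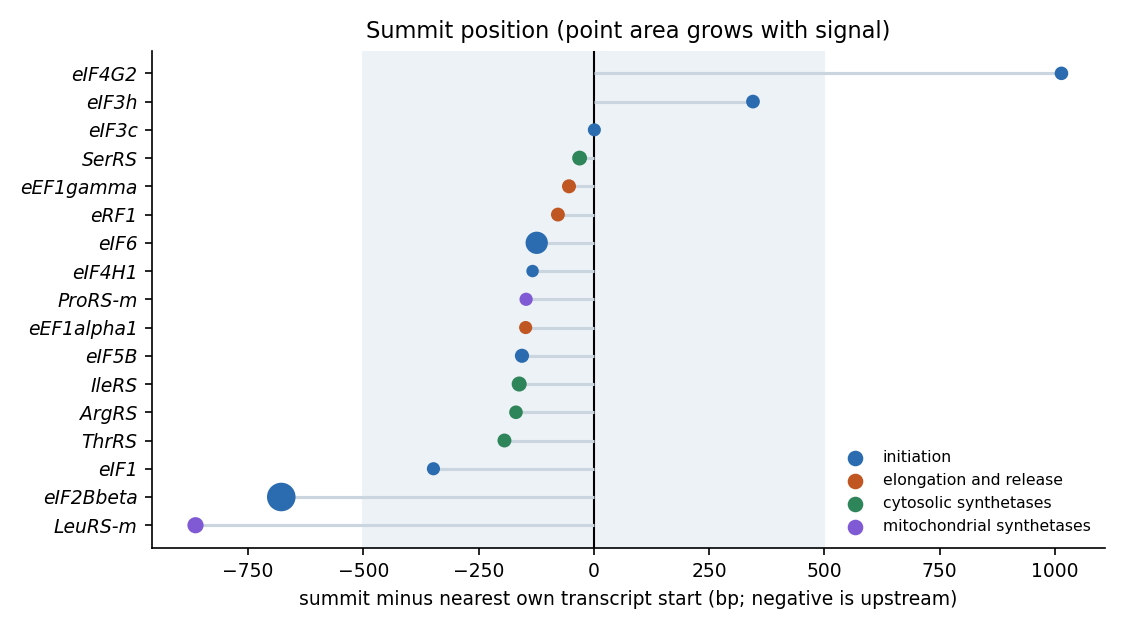
Distance of the summit from the nearest own transcript start in bp (x axis, negative is upstream) for 17 of the 18 genes (y axis), with point area growing with signal and colour giving the role. The shaded band marks 500 bp each side. The largest points, eIF2Bbeta at 678 bp upstream and eIF6 at 124 bp upstream, fall outside and inside the band, and the eIF4EHP summit, 9779 bp inside its gene, is beyond the axis.

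Of the 14 genes with a summit near an own start, 9 (64.3%) had that summit within 500 bp of another gene's start too, beside 965 (57%) of the 1693 protein-coding genes with such a summit. Of the 85 genes, 54 (63.5%) had another gene's start within 1000 bp of one of their own, beside 48.2% of all protein-coding genes. Among those 54 genes 13 (24.1%) had a summit near an own start, and among the other 31 genes 1 did (3.23%). Over all protein-coding genes the shares were 17.5% of 6726 genes with such a neighbour and 7.11% of 7219 without one. A peak between a pair of starts cannot be given to 1 of them from these files.

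Gene length moved with the counts as well. Of the 79 genes of at most 10000 bp, 15 (19.0%) had a peak, beside 13.8% of all protein-coding genes of that length. Of the 6 longer genes 3 had one, beside 45.6% of all longer genes. The part of length and of neighbouring starts in the counts was not tested.

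Below the thresholds the signal at these genes spread widely and overlapped that of other genes. The ranked list over both replicates gave a peak to 75 of the 85 genes (88.2%), beside 89.6% of all, with a median of 4 ranked peaks per gene in each. The 10 genes with no ranked peak in that list were eEF1beta, eEF1delta, eEF2, eIF2Balpha, eIF3f2, eIF3j, eIF4B, eIF4G1, eIF5 and PheRS-m. They include the translocation factor eEF2, the exchange factor subunits eEF1beta and eEF1delta and the scaffold eIF4G1. The ranked list of replicate 2 did hold a peak within 500 bp of a start at eEF1beta (11.6) and eIF2Balpha (6.92). Within 500 bp of a start, 65 of the 85 genes had a ranked peak, and the strongest had a median signal of 28.4 with quartiles of 21.3 and 42.1, beside a median of 24.99 and quartiles of 17.4 and 39.0 over 10518 protein-coding genes.

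By role, the median of that promoter signal was 24.3 over 31 initiation factor genes, 64.6 over 6 elongation and release factor genes, 32.2 over 15 cytosolic synthetase genes and 28.2 over 13 mitochondrial synthetase genes. It was 45.5 over 79 cytosolic ribosomal protein genes. Of the elongation and release factor genes with a ranked peak there, eEF1alpha2, at 21.01, was below the median of all protein-coding genes and the other 5 were above it, while 3 of the 9 had none. The ranges of the 4 roles overlapped throughout.

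**Figure D4:**
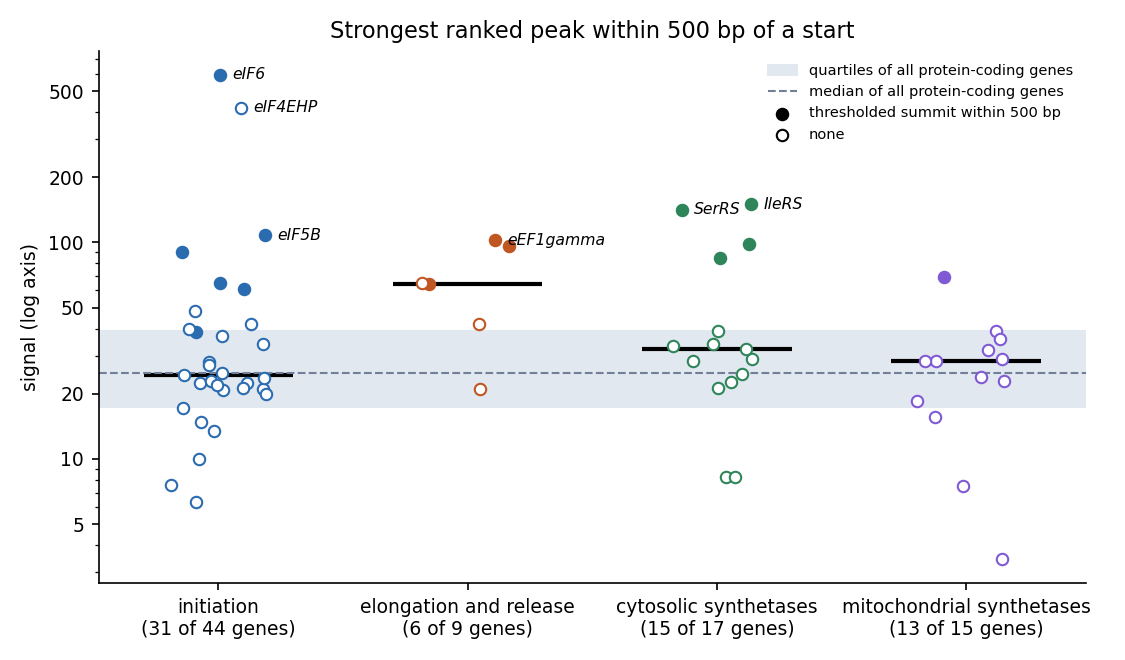
Signal of the strongest ranked peak within 500 bp of a start (y axis, log scale) for each of the 65 genes that had one, by role (x axis). Filled points had a thresholded summit there and open points had none, black bars are medians, and the band and dashed line give the quartiles (17.4 and 39.0) and the median (24.99) of all protein-coding genes. Most points lie within or near the band, and eIF4EHP (418) is the highest open point.

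The 6 genes without a thresholded peak that had the highest scores in the ranked list were eIF4A, eIF2D, eIF3d1, MetRS-m, eIF2Bdelta and ValRS. The score is the IDR rescaled by the authors to at most 1000, and the lowest in the thresholded set was 830. The gene for the helicase eIF4A had 873 at a signal of 43.4, and that for eIF2D, which delivers initiator tRNA independently of eIF2, had 716 at a signal of 42.1. The eIF3 subunit gene eIF3d1 had 709 at a signal of 44.0, and the exchange factor subunit gene eIF2Bdelta had 655 at a signal of 52.1. The synthetase genes MetRS-m and ValRS had 691 and 653, at signals of 38.3 and 45.4. The signal of MetRS-m lay just below the lowest of the 18 genes with a peak, 38.7 at eIF4H1. The others lay between that of eIF4H1 and the next lowest of the 18, 60.8 at eIF3c. The overlap of these 6 genes with the called genes thus rested on eIF4H1 alone.

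Of the 67 genes without a thresholded peak, 9 (13.4%) had a thresholded summit within 2000 bp of the gene, 18 (26.9%) within 5000 bp and 32 (47.8%) within 10000 bp, beside 8.81%, 23% and 40.9% of all 11388 protein-coding genes without a peak. The nearest was 240 bp away, at eIF3g1. By chromosome arm, a peak was given to 3 of 12 genes on 2L (beside 17.7% of all protein-coding genes there), 3 of 20 on 2R (17.8%), 6 of 22 on 3L (19.5%), 3 of 20 on 3R (18.2%), 3 of 10 on X (19.2%) and 0 of 1 on chromosome 4 (1.25%).

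Motifs were counted within 50 bp of the 20 summits and, as a description only, set beside all 3774 summits. The TATA box was in 6 windows (30%), beside 20.3% of all summits. The A run and the DRE core were in 1 window each (5%), beside 17.7% and 2.01%. The motif 1 core, the E-box and the homeodomain core were in none, beside 1.03%, 2.99% and 8.90%. These lower shares depended on the window. Within 100 bp the A run was in 35%, beside 29.9%, the E-box in 20%, beside 7.5%, and the homeodomain core in 15%, beside 14.8%. Over the 15 promoter summits alone, within 50 bp, the DRE core was in 6.67%, beside 3.58% of all 1453 promoter summits. The A run was in 6.67% of them, beside 17.8%, and the TATA box in 26.7%, beside 21.8%. At least 1 of the 6 motifs was in 7 of the 20 windows. The G and C content of the central 51 bp averaged 33.2% ± 14.2 (SD, n = 20 summits) for these genes and 34.3% ± 12.1 (SD, n = 3774) for all peaks, so the averages differed by less than the spread.

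Promoters were taken as 250 bp before to 50 bp after 1 start per gene, that of the Ensembl canonical transcript. Peaks were given by all starts of a gene, so the promoter scored need not be the one near its peak. The promoters of these genes held the DRE core more often than promoters in general, whether or not the gene had a peak. It was in 32 of 85 promoters (37.6%), beside 17.7% of 13944. It was in 21 of 44 initiation factor promoters (47.7%), 5 of 9 elongation and release factor promoters (55.6%), 5 of 17 cytosolic synthetase promoters (29.4%) and 1 of 15 mitochondrial synthetase promoters (6.67%). Of the genes with a peak 10 of 18 held it and of those without one 22 of 67, beside 19.7% and 17.2% of all protein-coding genes with and without a peak. These shares were not tested. The DRE is the element bound by the factor DREF at many promoters of growth genes.

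The other motifs were closer to the general share. The A run was in 35.3% of the 85 promoters, beside 26.7% of all, the motif 1 core in 15.3%, beside 9.39%, and the E-box in 22.4%, beside 17.9%. The TATA box was in 51.8%, beside 45.3%, and the homeodomain core in 23.5%, beside 20%. These matches are short letter strings and are no evidence of a bound factor.

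Genes for ribosomal proteins and for some translation factors begin transcription within a polypyrimidine initiator (also called the TCT motif), a short stretch of C and T at the start itself. The starts of 6 of the genes are shown so that strings of this kind can be seen beside the annotated start. Each is 41 bp of the Release 6 sequence from RefSeq, 5′ to 3′ on the gene's strand with the annotated start in the middle, and capitals mark the letters CTTT with a C or a T on each side. In these 6 genes the string begins 1 to 7 bp past the annotated start and does not cover it, so a match is a polypyrimidine string near the start and is not shown to be an initiator. Some strings counted below lie farther off. They begin at 10 bp in eIF5B, 11 bp in eIF3l, -10 bp in eEF1delta and -12 bp in eIF4E5 (negative is upstream). The windows are at 2L:21682096-21682136 (minus strand) for eEF2, 2L:5981744-5981784 (plus) for eIF4A, 3L:16786921-16786961 (minus) for eIF3e, 3R:4714162-4714202 (minus) for eIF3f1, 3L:16419282-16419322 (minus) for TyrRS and 2L:12103731-12103771 (plus) for ThrRS.
eEF2: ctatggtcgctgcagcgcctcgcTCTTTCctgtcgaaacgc
eIF4A: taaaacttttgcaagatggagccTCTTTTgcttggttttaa
eIF3e: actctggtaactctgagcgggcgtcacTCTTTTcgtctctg
eIF3f1: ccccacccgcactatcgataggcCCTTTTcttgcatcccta
TyrRS: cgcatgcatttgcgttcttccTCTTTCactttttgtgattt
ThrRS: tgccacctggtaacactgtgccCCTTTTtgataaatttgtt
Of these 6 genes only ThrRS had a thresholded peak. Within 20 bp of the start of the canonical transcript and on the gene's strand, 15 of the 85 genes (17.6%) held such a string of 6 letters. The share was 4.77% of 13944 genes. As with the promoters, this start need not be the one near a gene's peak. The string was counted by role and by peak as well. It was in 9 of 44 initiation factor genes (20.5%), 4 of 9 elongation and release factor genes (44.4%), 2 of 17 cytosolic synthetase genes (11.8%) and 0 of 15 mitochondrial synthetase genes, while 61 of 92 cytosolic ribosomal protein genes (66.3%) held it. Of the 18 genes with a peak 2 held it (11.1%), namely eIF5B and ThrRS, and of the 67 without one 13 did (19.4%), beside 5.71% and 4.56% of all protein-coding genes with and without a peak.

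**Figure D5:**
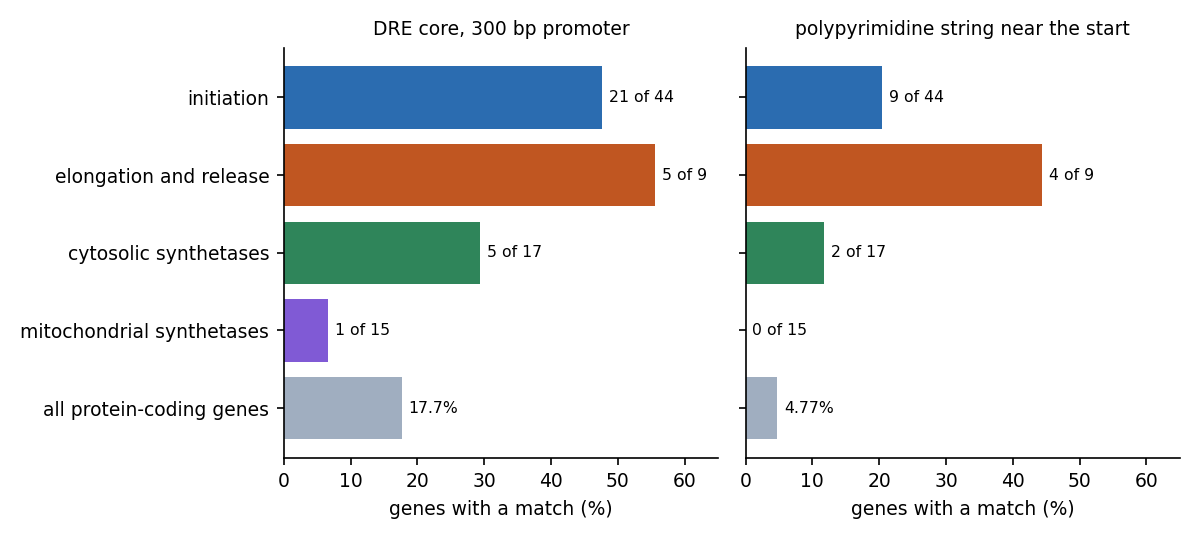
Percentage of promoters (x axes) with the DRE core within the 300 bp promoter (left panel) and with a polypyrimidine string within 20 bp of the start (right panel), by role and for all protein-coding genes (y axis). Bars are shares of genes in 1 genome and have no error. The DRE core is in 47.7% of initiation factor promoters and 6.67% of mitochondrial synthetase promoters, beside 17.7% of all.

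The symbol rule leaves out translation genes with other names, and lists of these were counted in the same way. Of 27 other translation factors and cofactors 8 had a peak. The strongest peak of each was 217 at waw, which encodes a translation GTPase of mitochondria, 126 at larp, which encodes an mRNA-binding protein, 89.6 at pAbp, the poly(A)-binding protein gene, 81.2 at mIF2, a mitochondrial initiation factor gene, 65.7 at the helicase gene bel, 61.5 at Paip2, whose product binds the poly(A)-binding protein, 51.7 at mEFTu1, a mitochondrial elongation factor gene, and 51.6 at rin, which encodes a protein of stress granules. Of 11 other synthetase subunits and cofactors 2 had one, at 202 for GluProRS, the joint enzyme for glutamate and proline, and 108 for GatA, a subunit of the mitochondrial amidotransferase that makes glutaminyl-tRNA. Of 15 kinases and regulators of translation 3 had one, at 442 for REPTOR, a transcription factor under the kinase TOR, 308 for Myc, a growth regulator, and 86.9 for the GTPase gene Rheb. These shares of 29.6%, 18.2% and 20% stand beside the same 18.3% of all protein-coding genes.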

How the data were processed

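Per the labels, peaks were called on the dm6 assembly from 2 biological replicates. The deposited files hold, for each replicate and for both together, ranked peak lists and thresholded sets, the pair having a conservative set too. Signal is the value the authors' caller gave to each peak. The score is the IDR rescaled by the authors to at most 1000, and the deposited ranked lists give the −log10 of the IDR. Summits came from the deposited offset. The aligner and caller were not given in the sources used here, and depth is unknown.

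Summits were assigned to the gene models of Ensembl release 115 on Release 6. No peak ended beyond its arm. Replicate signals are those of the strongest overlapping peak (at least 1 bp) in each replicate's ranked list. Sequences came from the RefSeq genome. Assignment and motif search, in Python 3.11.15 with numpy 2.4.6, pandas 2.3.3 and matplotlib 3.10.9, were tested on simulated data.

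Genes, lists and motifs were chosen with earlier results of these data known. Every gene with a thresholded peak is named, the 4 strongest per role are given in full, and of the others the 6 with the highest scores are named. The alternatives tried were other peak sets, an IDR of 0.001, other assignment rules, single replicates and other windows. No test was run, since there is 1 group.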

Additional observations from a re-analysis of the deposited data

Results flagged for a closer look

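A strong peak near the start of eIF4EHP was in the ranked list over both replicates and in no thresholded set, which set it apart from the data used for the counts. It lay at 3R:24109063-24109323, with the summit 203 bp upstream of the start, and had a signal of 418, a score of 1000 and a −log10 IDR of 5. Its rank was 63 in the ranked list, and it would have ranked 60 in the thresholded set. The ranked lists of the single replicates held it too, with a signal of 228 (rank 60) in replicate 1 and 190 (rank 82) in replicate 2. Its 101 bp window, at 3R:24109113-24109213 on the minus strand of the Release 6 genome from RefSeq, is shown because it is the strongest signal at an own start after eIF6, with capitals marking the TATA box and homeodomain core letters.
eIF4EHP: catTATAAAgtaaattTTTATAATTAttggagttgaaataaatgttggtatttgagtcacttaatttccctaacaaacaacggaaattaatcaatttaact
A peak in eIF4A at 2L:5983918-5984213 was likewise in the ranked list and not in the thresholded set, with a signal of 43.4 and a score of 873, above the lowest score of 830 in that set. It had 32.3 in replicate 1 and 15.2 in replicate 2. Over the 6 arms 82 ranked peaks had a score of at least 830 and were missing from the thresholded set, 2 of them at these 85 genes. Why they are missing was not tested.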

How the results depend on the processing

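The count of 18 genes with a peak stayed within 1.5 times of itself under 8 of the 9 other settings, between 12 and 26, and was 10 when a peak went only to the gene with the nearest start, a rule that by construction leaves each shared peak to a single gene. With a single replicate the count was 12 (without replicate 1) to 14 (without replicate 2). The median signal of 93.0 was 97.3 in the conservative set, which held the strongest peak of 16 of the 18 genes, and 42.3 to 45.6 in the ranked lists of single replicates, which are not scaled to the list over both. The count of genes called in both replicates was 8, and 10 at an IDR of 0.05. Of the 20 summit windows, 7 held at least 1 motif within 50 bp, 5 within 25 bp and 17 within 100 bp, where longer windows hold more matches by construction. Of 48 counts by role or by motif under these settings, 31 stayed within 1.5 times of the value reported and 17 did not; the cause was not tested. No paired analysis was possible because there is 1 group. The unknown depth does not show how many weak peaks were missed at genes without one.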
